A study of Homo sapiens with 8 samples.

Results

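Histone variants are encoded outside the large histone gene clusters and replace the standard histones in selected nucleosomes. The genes described here are 8 human histone variant genes: H2AZ1, H2AZ2, H2AX, H2AJ, MACROH2A1, H3-3A, H3-3B and H1-10. They were chosen by name, and their members are all rows of the transcript count table that GENCODE version 44 assigns to them. The table lists 67 of their transcripts, and 45 of these were counted in 1 or more libraries. In all, 62639 genes have a listed transcript. Of the 8 genes, 6 passed the filter on low counts and were tested among 7597 genes. H3-3A and H1-10 did not pass it.

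The study asked what loss of the splicing regulator PTBP1 does in leukemia cells. The cells were MOLM-13, a human acute myeloid leukemia cell line. In 4 libraries, shPTBP1, the cells held a lentiviral shRNA that targets PTBP1; in 4 others, shSCR (shControl in the labels), the shRNA had a scrambled sequence. Doxycycline (dox) switches on the shRNA, and all 8 libraries came from cells given it for 9 days. Cells of both groups share the markers of the vector, mCherry and the dox-driven ΔLNGFR. Each group rests on 1 shRNA, so other differences between the transduced cells cannot be told apart from PTBP1 knockdown (KD). The replicates are called biological in the labels, but whether they were separate transductions is not said. Nanopore sequencing follows a cDNA molecule over much of its length, and so shows which exons it joins.

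Unlike the standard histones, which are made during DNA replication, the variants can be deposited throughout the cell cycle. H2A.Z, from H2AZ1 and H2AZ2, marks the nucleosomes beside active promoters. H2A.X is phosphorylated beside DNA double strand breaks. MacroH2A1 carries a large globular macrodomain behind its histone fold and is enriched in silent chromatin. Its RNA is spliced with either of a pair of mutually exclusive exons, and the macrodomain of the macroH2A1.1 form binds ADP-ribose while that of macroH2A1.2 does not. The H3-3A and H3-3B genes encode the H3 variant of transcribed chromatin and telomeres, and H1-10 encodes a linker histone.

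The libraries held between 1528449 and 1613342 counts, and between 12322 and 12589 genes were detected in each. PTBP1 itself had 10, 15, 13 and 23 counts in the shPTBP1 libraries and 65, 90, 64 and 78 in the shSCR libraries. Its log2 fold change was -2.26 (SE 0.22, adjusted p = 7.18e-05, edgeR). Of 12 markers of myeloid blasts, 10 were found in every library, and their summed level was 542.8 to 694.0 CPM after shPTBP1 and 516.4 to 542.2 after shSCR; the part of this difference in the results was not tested. All 5 T cell markers were at 0, as were the erythroid markers HBB and ALAS2. The 5 B cell markers summed to 2.64 to 3.95 CPM after shPTBP1 and 3.69 to 6.002 after shSCR, and the 6 fibroblast or epithelial markers to 11.4 to 18.5 and 13.4 to 19.0.

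The alternative sequences of the variant RNAs are shown first, because the splice forms below are told apart by them. They are read from hg38 on the minus strand and written 5′ to 3′. The exons particular to macroH2A1.1 (chr5:135350823-135350913, 91 bases) and macroH2A1.2 (chr5:135352946-135353045, 100 bases) lie 2032 bases apart in MACROH2A1. Both are coding exons between the same neighbours, and each is shown in capitals, with 60 bases of the intron before it and 10 after it.
macroH2A1.1 exon: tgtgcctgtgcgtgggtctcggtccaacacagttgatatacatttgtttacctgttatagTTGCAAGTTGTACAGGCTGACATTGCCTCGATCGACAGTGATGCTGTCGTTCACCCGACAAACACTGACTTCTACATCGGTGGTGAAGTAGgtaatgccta
macroH2A1.2 exon: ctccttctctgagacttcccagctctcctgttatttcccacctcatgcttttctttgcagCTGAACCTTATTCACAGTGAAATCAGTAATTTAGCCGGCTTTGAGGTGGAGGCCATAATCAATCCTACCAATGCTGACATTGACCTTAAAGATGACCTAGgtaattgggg

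In the 100 bases before the macroH2A1.2 exon 70 were pyrimidines, a number reached by 2.87% of 78300 such windows before internal exons of protein-coding transcripts in the tested genes. Before the macroH2A1.1 exon 52 of 100 were pyrimidines, and 70.8% of the windows held as many or more. PTBP1 binds pyrimidine-rich RNA, for which the letters TCTT and CTCT, which can overlap each other, were searched on the transcribed strand. TCTT was found once and CTCT 2 times before the macroH2A1.2 exon, and neither before the macroH2A1.1 exon. Of all windows, 64.4% held TCTT and 48.5% held CTCT, while 19.2% held CTCT 2 times or more. The letters ACTAA, part of the motif bound by the splicing factor QKI, were in neither window and in 8.14% of all windows. The introns after the exons were not searched for any of these letters. These matches describe the letters and do not show binding.

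A pair of 3-base choices and a skipped exon follow, which tell further splice forms apart by short stretches of sequence. In the macroH2A1 acceptor (chr5:135360575-135360637) and the H2AZ1 donor (chr4:99948781-99948843) the capitals are the 3 bases that only the longer exon holds. At both sites the capitals repeat the 3 bases before them. How surely reads were assigned at such repeats was not tested. In H2AZ2 (chr7:44843267-44843384) the capitals are the coding exon of 78 bases that H2AZ2-204 skips.
macroH2A1 3-base acceptor: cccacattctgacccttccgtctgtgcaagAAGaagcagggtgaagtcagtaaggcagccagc
H2AZ1 3-base donor: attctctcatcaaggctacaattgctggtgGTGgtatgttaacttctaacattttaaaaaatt
H2AZ2 skipped exon: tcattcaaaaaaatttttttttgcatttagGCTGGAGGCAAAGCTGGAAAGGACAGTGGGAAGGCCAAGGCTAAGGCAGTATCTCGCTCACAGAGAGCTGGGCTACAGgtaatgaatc

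PTBP1 KD was accompanied by a lower level of a single tested variant gene, MACROH2A1, which fell by 45.5%. None of the 5 other tested variants passed the test in either direction. Of the 6 tested genes, 1 was called lower and 0 higher with edgeR's quasi-likelihood test at an adjusted p under 0.05, while 3.19% of all tested genes were called lower and 2.36% higher. The members had a median log2 fold change of 0.10, and no member other than MACROH2A1 had an unadjusted p under 0.05. DESeq2 also called 1 member.

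MACROH2A1 (ENSG00000113648) spans chr5:135334381-135399914 in GRCh38, on the minus strand. Its counts were 236, 184, 214 and 235 in shPTBP1 replicates 1 to 4, and 358, 493, 338 and 426 in shSCR replicates 1 to 4. All shPTBP1 libraries lay below all shSCR libraries, as was so in 1 of the 6 tested members; 12.7% of all tested genes had groups that did not overlap, in either direction. In counts per 1000000 (CPM) with TMM normalization, the level was 140.6 ± 13.4 (SD, n = 4) after shPTBP1 and 258.2 ± 44.2 (SD, n = 4) after shSCR. The log2 fold change was -0.88 (SE 0.11, adjusted p = 0.000653, edgeR), which ranked 34 by p among the tested genes. An exact two-sided permutation test over the 8 libraries gave p = 0.0286, the smallest that 4 against 4 libraries allow. RNA from the whole culture was measured, so that fewer cells with this RNA and less of it per cell cannot be told apart.

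**Figure D1:**
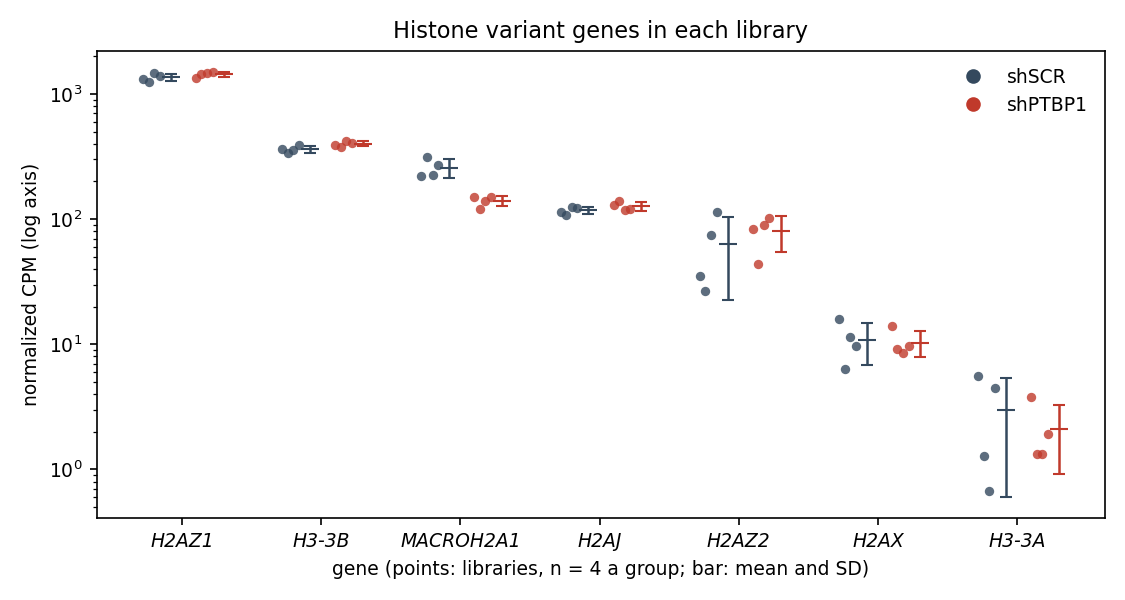
Normalized CPM on a log axis for the 7 variant genes with counts, with shSCR in dark blue and shPTBP1 in red, each point a library and the bars the mean and SD of 4 libraries. The groups are apart for MACROH2A1 (140.6 against 258.2 CPM) and overlap for the other genes.

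Both macroH2A1 forms fell with the gene. Transcripts with the macroH2A1.1 exon had 47, 40, 44 and 46 counts in the shPTBP1 libraries and 84, 130, 70 and 81 in the shSCR libraries. Those with the macroH2A1.2 exon had 178, 139, 161 and 177 counts after shPTBP1 and 265, 353, 260 and 334 after shSCR. Neither form had groups that overlapped. As normalized CPM, macroH2A1.1 was at 28.6 ± 1.51 (SD, n = 4) after shPTBP1 and 58.3 ± 16.5 (SD, n = 4) after shSCR, a log2 ratio of -1.02. MacroH2A1.2 was at 105.9 ± 9.97 (SD, n = 4) and 193.8 ± 30.3 (SD, n = 4), a log2 ratio of -0.87. The exact permutation test gave p = 0.0286 for each form.

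The choice between the exons was measured as the share of macroH2A1.1 among transcripts with either exon. It was 20.9%, 22.3%, 21.5% and 20.6% in shPTBP1 replicates 1 to 4 and 24.1%, 26.9%, 21.2% and 19.5% in shSCR replicates 1 to 4. The shPTBP1 shares lay within the range of the shSCR shares. The means were 21.3% ± 0.761 (SD, n = 4) and 22.9% ± 3.25 (SD, n = 4), a difference of -1.60 percentage points (SE 1.67, exact permutation p = 0.40). Pooled over a group, macroH2A1.1 made up 177 of 832 counts after shPTBP1 (21.3%, 95% Wilson interval 18.6 to 24.2) and 365 of 1577 after shSCR (23.1%, 95% Wilson interval 21.1 to 25.3). No change of exon choice was seen beyond the spread between libraries. The intervals cover counting error only.

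**Figure D2:**
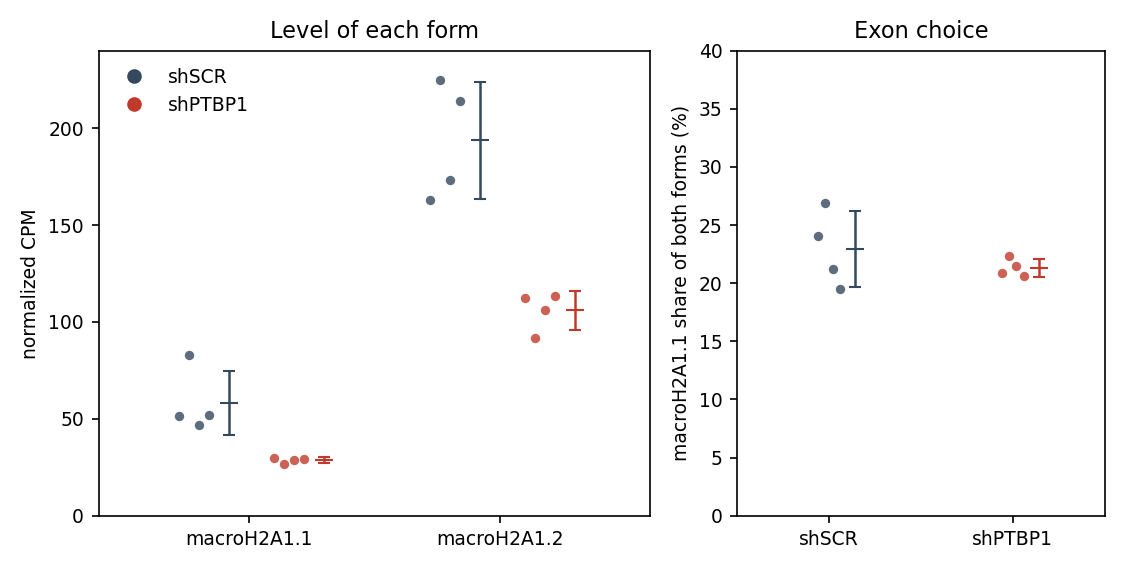
Left, normalized CPM of the transcripts with the macroH2A1.1 or the macroH2A1.2 exon; right, the macroH2A1.1 share in percent of both. Points are libraries, bars the mean and SD of 4. Both levels are lower after shPTBP1, and the shares overlap (21.3% against 22.9%).

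The forms come almost wholly from a transcript each. MACROH2A1-217 has the macroH2A1.2 exon and 372 codons, and held 69.5% ± 2.10 of the gene's counts after shPTBP1 and 69.6% ± 2.89 after shSCR (SD, n = 4). MACROH2A1-202 has the macroH2A1.1 exon and 369 codons, and held 20.4% ± 0.953 and 22.3% ± 3.14 (SD, n = 4). When transcripts were tested singly, a unit chosen after the data were seen, MACROH2A1-217 fell by 0.88 on the log2 scale (SE 0.12, adjusted p = 0.000798, edgeR) and MACROH2A1-202 fell by 1.03 (SE 0.18, adjusted p = 0.00417). Of 14 member transcripts tested in this way those 2 were lower and 0 higher, while 3.00% of all transcripts tested were lower and 5.45% were called in either direction. The next transcript, MACROH2A1-201, had a log2 fold change of -1.06 (SE 0.31, adjusted p = 0.0721, edgeR).

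**Figure D3:**
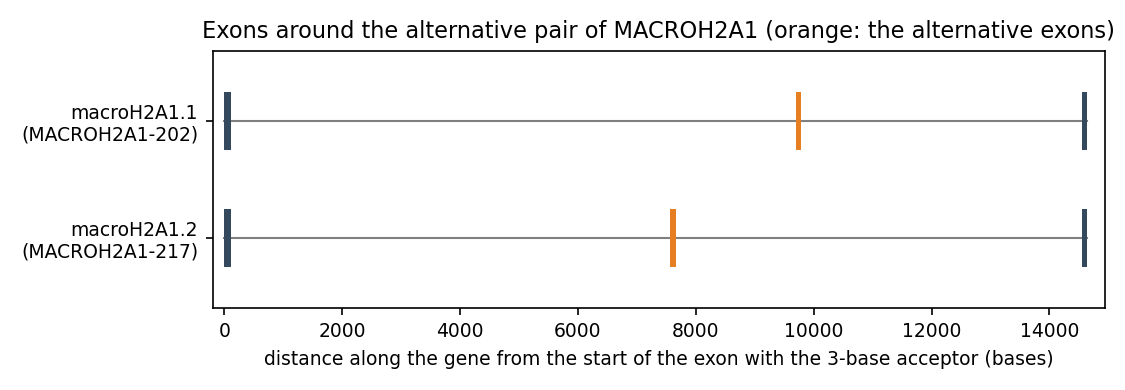
Exons 5 to 7 of the main transcript of each macroH2A1 form, to scale, by distance in bases along the gene from the start of the exon with the 3-base acceptor. The macroH2A1.2 exon (orange) starts 7562 bases after the start of that exon and the macroH2A1.1 exon 9694 bases after it, between the same flanking exons (dark blue).

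Other splice choices in MACROH2A1 did not separate the groups either. At the 3-base acceptor shown above, the longer exon made up 96.5% ± 0.904 after shPTBP1 and 95.9% ± 1.01 after shSCR (SD, n = 4, exact permutation p = 0.40). An upstream first exon was used by 4.00% ± 1.08 and 4.51% ± 0.556 of the transcripts that hold either first exon (SD, n = 4, exact permutation p = 0.429). Across the members, 12 transcripts of 4 genes entered edgeR's diffSpliceDGE test of isoform usage. It called 0 of them (adjusted p under 0.05, with the mean share moved by 10 points or more). None had an unadjusted p under 0.05 in edgeR or in limma's diffSplice, which called 0 as well. The smallest in edgeR, for H3-3B-208, was an unadjusted p = 0.228. Of all transcripts tested for usage, 1.12% were called.

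H2AZ1 (ENSG00000164032, chr4:99948086-99950355) and H2AZ2 (ENSG00000105968, chr7:44826791-44848087) encode proteins of 128 codons that differ at 3 residues. Their coding sequences are 80.5% identical. H2AZ1 had 2142, 2172, 2229 and 2339 counts after shPTBP1 and 2156, 1950, 2207 and 2169 after shSCR, and the groups overlapped. Its normalized level was 1439 ± 61.3 and 1357 ± 97.8 CPM (SD, n = 4), a log2 fold change of 0.08 (SE 0.06, adjusted p = 0.505, edgeR). H2AZ1-201 held 95.8% ± 0.832 and 96.1% ± 0.0985 of its counts (SD, n = 4). The 3-base shorter donor, used by H2AZ1-207, made up 3.33% ± 0.723 after shPTBP1 and 3.22% ± 0.233 after shSCR (SD, n = 4, exact permutation p = 0.83).

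H2AZ2 had 133, 66, 137 and 161 counts after shPTBP1 and 57, 42, 113 and 178 after shSCR, with a log2 fold change of 0.36 (SE 0.36, adjusted p = 0.646, edgeR). Its most counted transcript was absent from the counts of some libraries in both groups. H2AZ2-201, which has another last exon and 114 codons, was listed at 72, 0, 72 and 84 counts after shPTBP1 and at 0, 0, 73 and 92 after shSCR. No library held a value between 0 and 72, and whether the transcript was absent from the libraries at 0 or was not counted there was not tested, so that the fold change of the gene is uncertain. Of the 3776 transcripts in the table with a median of at least 50 counts, 40 (1.06%) were likewise at 0 in some library. Without H2AZ2-201, H2AZ2 had 61, 66, 65 and 77 counts after shPTBP1 and 57, 42, 40 and 86 after shSCR. These keep the rare H2AZ2-208, at 0 in all shPTBP1 libraries and at 5, 0, 0 and 12 counts after shSCR. The level was then 43.6 ± 4.40 CPM after shPTBP1 and 35.9 ± 13.4 after shSCR (SD, n = 4), so that the shSCR libraries remained spread. Its log2 fold change was then 0.28 (SE 0.20, adjusted p = 0.509, edgeR), and the groups still overlapped.

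**Figure D4:**
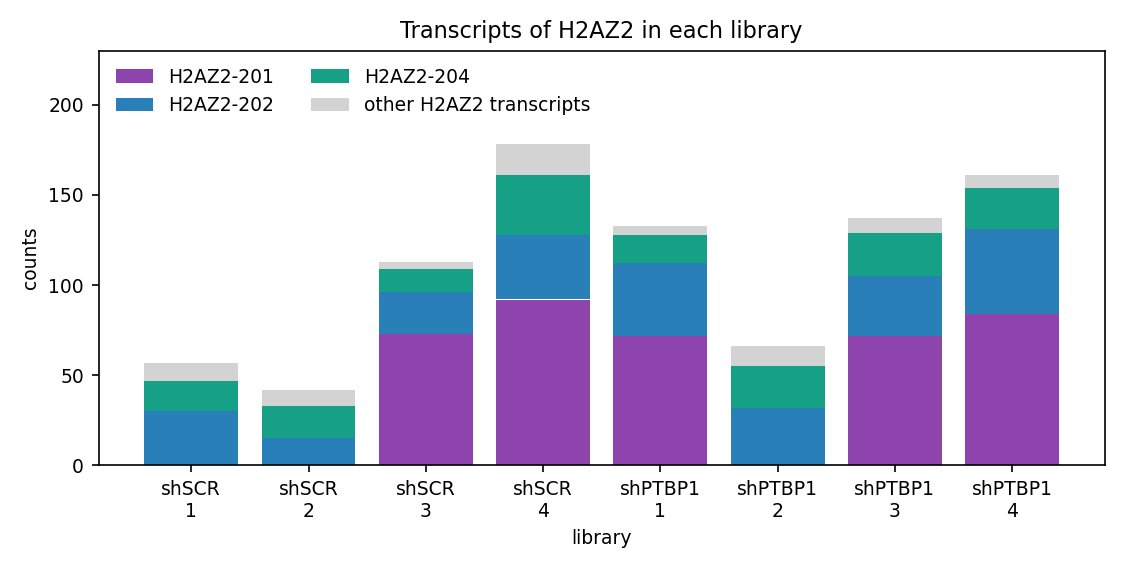
Counts of the H2AZ2 transcripts in each library, stacked, with H2AZ2-201 in purple, H2AZ2-202 in blue, H2AZ2-204 in green and the rest in grey. H2AZ2-201 is at 0 in shSCR 1 and 2 and shPTBP1 2, and between 72 and 92 in the other libraries.

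H2AZ2-204 skips the 78-base exon shown above and has 102 codons. Among H2AZ2-202 and H2AZ2-204, the skipped form made up 28.6%, 41.8%, 42.1% and 32.9% after shPTBP1 and 36.2%, 54.5%, 36.1% and 47.8% after shSCR. The groups overlapped, with means of 36.3% ± 6.73 and 43.7% ± 9.11 (SD, n = 4, exact permutation p = 0.229). These shares rest on 238 and 185 counts.

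H2AX (ENSG00000188486, chr11:119093874-119095465) had few counts, 22, 14, 13 and 15 after shPTBP1 and 26, 10, 17 and 15 after shSCR. How much of its RNA was captured in these libraries, with or without a poly(A) tail, was not tested, so its level is uncertain. Its log2 fold change was -0.07 (SE 0.30, adjusted p = 0.934, edgeR), and its sign turned when either shPTBP1 replicate 3 (0.01) or shSCR replicate 1 (0.19) was left out. Phosphorylation of the protein is not measured by RNA counts. Most counts fell on the unspliced H2AX-202. The spliced H2AX-201, annotated as a target of nonsense-mediated decay, took 15 of 64 counts after shPTBP1 (23.4%, 95% Wilson interval 14.7 to 35.1) and 13 of 68 after shSCR (19.1%, 95% Wilson interval 11.5 to 30.01).

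H2AJ (ENSG00000246705, chr12:14774405-14778002) encodes a replication-independent H2A that is known to build up in senescent cells. All its counts fell on H2AJ-203, which has a single exon and 129 codons. They were 205, 212, 180 and 187 after shPTBP1 and 186, 171, 186 and 191 after shSCR, and the groups overlapped. The normalized level was 127.0 ± 10.1 and 117.4 ± 7.14 CPM (SD, n = 4), a log2 fold change of 0.11 (SE 0.08, adjusted p = 0.511, edgeR).

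H3-3A (ENSG00000163041, chr1:226061851-226072019) and H3-3B (ENSG00000132475, chr17:75776434-75785893) encode the same protein of 136 codons, from coding sequences that are 78.4% identical. H3-3B had 620, 575, 638 and 638 counts after shPTBP1 and 595, 530, 538 and 615 after shSCR. The groups overlapped, with 400.2 ± 17.7 and 364.1 ± 23.6 CPM (SD, n = 4). Its log2 fold change was 0.14 (SE 0.07, unadjusted p = 0.0582, adjusted p = 0.280, edgeR). H3-3B-201 held 82.3% ± 3.34 of the counts after shPTBP1 and 81.5% ± 1.49 after shSCR (SD, n = 4). H3-3B-208, which ends earlier and has the same 136 codons, held 5.86% ± 0.992 and 7.01% ± 1.24. H3-3B-213, for which no coding sequence is annotated, held 8.41% ± 1.89 and 7.47% ± 1.68.

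H3-3A had few counts, 6, 2, 2 and 3 after shPTBP1 and 9, 2, 1 and 7 after shSCR, and was not tested. They were spread over H3-3A-203 (3 counts after shPTBP1 and 10 after shSCR), H3-3A-206 (7 and 3), H3-3A-209 (3 and 5) and H3-3A-208 (0 and 1). The table lists 47 H3 pseudogenes, all at 0 counts, and the authors kept only reads above a mapping quality of 50. The level of H3-3A is therefore uncertain, since reads of a gene with close copies can be lost in such a filter; their part was not tested. The 7 pseudogenes of H2AZ1 were also at 0.

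H1-10 (ENSG00000184897, chr3:129314771-129316286) was listed at 0 in all 8 libraries, for both of its transcripts. A count of 0 allows up to 3 counts per library, or at most 1.96 CPM in the smallest library, for counting error only. This limit holds for reads that would have been counted, and whether reads of H1-10 were lost in the mapping quality filter or the counting was not tested. Its antisense gene H1-10-AS1 was at 0 too.

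Levels were compared between the genes as normalized CPM per kilobase, with each gene's mean transcript length weighted by counts. Since a nanopore read follows a cDNA molecule over much of its length, counts may not need this division, and its fit was not tested. In shSCR cells H2AZ1 was highest at 1559 ± 112, followed by H2AJ at 189.4 ± 11.5, H3-3B at 154.3 (from 143.0 to 167.2 in the libraries), MACROH2A1 at 126.5 ± 21.7, H2AZ2 at 23.0 ± 14.7, H2AX at 7.005 ± 2.59 and H3-3A at 3.07 ± 2.45 CPM per kilobase (SD, n = 4). The libraries of neighbours in this order overlapped for H3-3B and MACROH2A1, for H2AZ2 and H2AX, and for H2AX and H3-3A. On the CPM scale, without division by length, H3-3B (364.1) and MACROH2A1 (258.2) stood above H2AJ (117.4), so that the place of H2AJ rests on the scale. After shPTBP1 the order per kilobase was unchanged and no neighbours overlapped. MACROH2A1 was then at 68.9 ± 6.55 and H3-3B at 169.6 ± 7.49 CPM per kilobase (SD, n = 4).

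The wider machinery of these histones gave few calls. Of 21 tested genes for variant deposition and exchange, 0 were called in either direction, with a median log2 fold change of 0.09 and 5 with an unadjusted p under 0.05 in edgeR, which 19.2% of all tested genes had. The 20 tested general histone chaperones gave 0 calls and a median of -0.01, with 1 at an unadjusted p under 0.05. The 11 tested factors for replication-dependent histone mRNA gave 0 calls and a median of 0.02, with 1 at an unadjusted p under 0.05. The median over all tested genes was 0.00, and 5.54% of them were called. Of the other histone variants only 2 of 19 were tested, with 0 calls and 1 at an unadjusted p under 0.05.

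Among 15 tested genes of H2AX phosphorylation and readout, 1 was lower and 0 higher, with a median of 0.04, while 3.19% of all tested genes were called lower. The lower gene was PPP2CA, a catalytic subunit of protein phosphatase 2A, with 119, 131, 132 and 211 counts after shPTBP1 and 240, 231, 198 and 240 after shSCR. Its replicate 4 after shPTBP1 lay among the shSCR libraries in normalized CPM. The log2 fold change was -0.60 (SE 0.14, adjusted p = 0.0299, edgeR), and the call was lost without shPTBP1 replicate 1, 2 or 3 or shSCR replicate 1, 2 or 4 (adjusted p from 0.0606 to 0.108).

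Of 14 tested factors that choose the macroH2A1 exon or handle ADP-ribose, 1 was higher and 0 lower, with a median of 0.05. Among all tested genes 2.36% were called higher and 3.19% lower. Of the 14, 2 had an unadjusted p under 0.05 in edgeR, against 19.2% of all tested genes. The higher gene was PTBP2, the paralog of PTBP1, with 194, 199, 190 and 185 counts after shPTBP1 against 1, 2, 2 and 4 after shSCR (log2 fold change 6.36, SE 0.19, adjusted p = 2.14e-10, edgeR). QKI, known to promote the macroH2A1.1 exon and named after its values were seen, was not called (log2 fold change -1.04, SE 0.63, adjusted p = 0.402, edgeR). Its counts were 26, 597, 24 and 584 after shPTBP1 and 721, 719, 600 and 540 after shSCR. The difference between its shPTBP1 libraries came with QKI-204, annotated as a target of nonsense-mediated decay. QKI-204 was listed at 0, 565, 0 and 558 counts there and at 681, 689, 565 and 506 after shSCR. Whether QKI-204 was absent from the libraries at 0 or was not counted there was not tested, and the fold change of QKI rests on these values. The protein-coding QKI-203 had 13, 20, 16 and 15 counts after shPTBP1 and 21, 17, 16 and 18 after shSCR, and the protein-coding QKI-207 had 12, 9, 8 and 11 and 18, 12, 19 and 12.

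The clustered histone genes, most of whose mRNAs are made in S phase without a poly(A) tail, gave calls in the opposite direction to MACROH2A1. How well RNA without such a tail was captured in these libraries was not tested, so the counts may cover only part of it. Of 68 listed genes 14 were tested, and 3 were higher and 0 lower, against 2.36% higher among all tested genes. Their median log2 fold change was 0.35, and 13 of the 14 were above 0. The share of all tested genes above 0 was not counted. Of the 14, 3 had an unadjusted p under 0.05 in edgeR, against 19.2% of all tested genes. H1-2, a linker histone, had 94, 109, 111 and 119 counts after shPTBP1 and 26, 27, 48 and 29 after shSCR, with no overlap (log2 fold change 1.75, SE 0.18, adjusted p = 0.000112, edgeR). H4C3, an H4 gene, had 631, 478, 762 and 711 counts against 475, 378, 471 and 470 (log2 fold change 0.54, SE 0.12, adjusted p = 0.0228, edgeR). H2AC25, an H2A gene, had 35, 46, 33 and 37 counts against 20, 26, 20 and 25 (log2 fold change 0.75, SE 0.19, adjusted p = 0.0362, edgeR).

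H1-2 was called whichever library was left out. H4C3 lost its call without shPTBP1 replicate 3 or 4 or shSCR replicate 2 or 4 (highest adjusted p = 0.0817, edgeR). H2AC25 lost its call without shPTBP1 replicate 2, 3 or 4 or shSCR replicate 1, 3 or 4 (highest adjusted p = 0.113, edgeR), and DESeq2 did not call it (adjusted p = 0.108). Clustered histone genes resemble each other closely, so that reads may be split among them. The other tested linker histones of the clusters, named after their values were seen, did not pass the test. Their log2 fold changes were 0.06 (SE 0.29) for H1-3, -0.17 (SE 0.27) for H1-4 and 0.38 (SE 0.24) for H1-5.

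**Figure D5:**
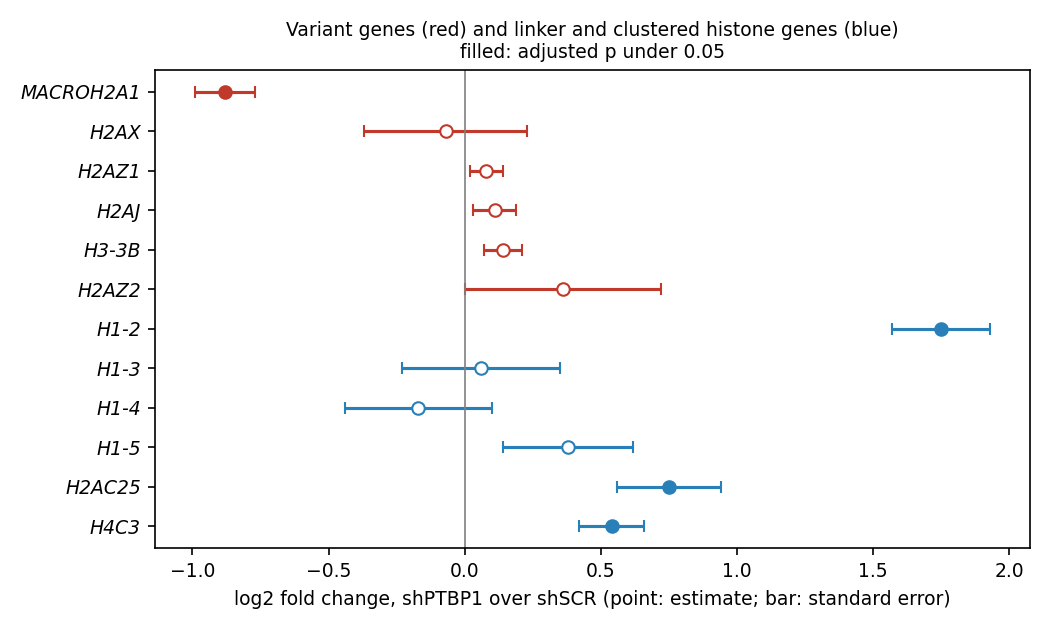
Log2 fold change of shPTBP1 over shSCR for the 6 tested variant genes (red) and for linker and clustered histone genes (blue), with the standard error as bars and filled points for an adjusted p under 0.05. MACROH2A1 (-0.88) is called lower, and H1-2 (1.75), H2AC25 (0.75) and H4C3 (0.54) are called higher.

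The genes whose log2 CPM followed MACROH2A1 most closely over the 8 libraries were KYAT3, a kynurenine aminotransferase (Pearson r = 0.985), GRB2, an adaptor of receptor signalling (r = 0.982), and MPST, a sulfurtransferase (r = 0.977). Each was lower after shPTBP1, with log2 fold changes of -0.90, -1.29 and -1.13. These values describe the 8 libraries, which fall into 2 groups, and the genes share their library sizes.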

How the data were processed

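RNA of MOLM-13 cells was measured in 8 nanopore cDNA libraries. The authors aligned reads to hg38 with minimap2, kept those above a mapping quality of 50, and made whole-number counts per transcript with StringTie; the annotation and tool versions are not given in the sources used here. The second deposited table is named TPM, but its values are CPM, the count over the library total, and were used in an alternative only. Groups came from the labels. Transcripts were joined by identifier without version to GENCODE version 44 on GRCh38, which held 252562 of 254070. Sequences were read from hg38.

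Counts were summed per gene and tested with edgeR 4.0.16 (TMM, filterByExpr with a minimum count of 10, quasi-likelihood test, group as the only term), with Benjamini-Hochberg adjustment over all genes tested. Usage was tested with diffSpliceDGE, called where the adjusted p was under 0.05 and the mean share moved by 10 points or more, and shares by exact two-sided permutation tests. On simulated counts for this comparison over 7407 tested genes, edgeR called 80 of 100 genes changed 2-fold, 99 of 100 changed 4-fold and 8 unchanged genes. The changed genes were drawn from those with a mean above 10 CPM, so recovery of lower genes was not simulated.

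Totals of 1528449 to 1613342 counts set the precision. Amplified cDNA molecules are not independent. The chi-square per gene between libraries of a group was 2.12 to 3.94, where counting error gives about 1, so none is a copy of another. The members, the lists of related genes and the tests were chosen with earlier results of these data known. Genes named are the members, their transcripts with at least 5% of the gene, PTBP1, called genes of the lists and the 3 most like MACROH2A1; others are said to be named after their values were seen, and some results are not reported here. Alternatives were DESeq2 1.42.0, its size factors in edgeR, limma 3.58.1 (voom, trend on the log2 of CPM plus 1, diffSplice), no low-count filter, other minimums, a replicate block, other denominators of the exon share, and leaving out each library. R 4.3.3, Python 3.11.15, pandas 2.3.3, numpy 2.4.6, scipy 1.17.1 and matplotlib 3.10.9 were used.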

Additional observations from a re-analysis of the deposited data

Results flagged for a closer look

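A single group of values held a library far from the others among 46 groups looked at, and chance gives such a gap in about 1 group in 20. It was the share of H2AZ2-201 among the counts of H2AZ2. In shPTBP1 replicate 2 the share was 0%, against 52.2% in the nearest of the other shPTBP1 libraries. In shSCR the transcript was at 0 in replicates 1 and 2 and at 64.6% and 51.7% in replicates 3 and 4. Whether it was absent or not counted in the libraries at 0 was not tested.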

How the results depend on the processing

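The count of 1 member called and the 0 member isoforms called held under all alternatives run for them. The difference of the macroH2A1.1 share kept its sign in its alternatives, but in the main test it was not beyond the spread between libraries (exact permutation p = 0.40). The log2 fold change of MACROH2A1 ran from -0.90 to -0.86 (adjusted p from 1.20e-08 to 0.00376) over 7 settings and from -0.95 to -0.77 (adjusted p up to 0.00502) when each library was left out. The difference of the macroH2A1.1 share ran from -1.94 to -1.39 points over 4 settings, and from -2.73 to -0.268 when each library was left out. For PTBP1 the log2 fold change ran from -2.51 to -2.09 when each library was left out. H2AX ran from -0.25 to 0.19 when each library was left out, with the sign turned at 0.01 without shPTBP1 replicate 3 and 0.19 without shSCR replicate 1. H2AZ2 ran from 0.11 to 0.82 in the same way and was called in none of its fits. With DESeq2, 3 genes of the lists were higher and 1 lower, against 4 and 1; H2AC25 was the gene not called. H2AX rests on 64 and 68 counts per group, and the macroH2A1.1 share on 832 and 1577.

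The replicate numbers were not used to pair the libraries in the main tests. The correlation of deviations between libraries of the same number was between -0.0328 and 0.00889, so no shared deviation was seen. Whether libraries of the same number were made together is not said in the labels. With the replicate number as a block MACROH2A1 had a log2 fold change of -0.87 (adjusted p = 0.00376, edgeR), PTBP1 of -2.27, 1 member and 0 member isoforms were called, and the macroH2A1.1 share differed by -1.60 points (exact paired p = 0.50). The block changed no call.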

Other observations

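Among the rarer MACROH2A1 transcripts, chosen here after their values were seen and not tested, MACROH2A1-218 had few counts in both groups. This transcript of 10982 bases in 4 exons, with no annotated coding sequence, had 7, 0, 7 and 10 counts after shPTBP1 and 0, 8, 4 and 4 after shSCR, and the groups overlapped. It took 2.62% ± 1.83 and 0.936% ± 0.685 of the gene's counts (SD, n = 4). MACROH2A1-221, annotated as a target of nonsense-mediated decay, had 4, 6, 0 and 7 counts after shPTBP1 and 5, 7, 3 and 4 after shSCR. It took 1.98% ± 1.49 and 1.16% ± 0.287 of the counts (SD, n = 4).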
